A study of Callithrix jacchus and Rattus norvegicus and Loxodonta africana with 31 samples.

Results

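Aquaporins are membrane channels that let water cross cells along osmotic gradients. The classical members carry mainly water, the aquaglyceroporins (AQP3, AQP7 and AQP9) also carry glycerol, AQP8 also passes ammonia and hydrogen peroxide, and AQP11 is a divergent member of intracellular membranes. In the kidney they serve water reabsorption, in the brain AQP4 sits in the endfeet of astrocytes, and in liver, heart and fat the aquaglyceroporins move glycerol between blood and cells. The family was followed here through 10 listed members (AQP1 to AQP9 and AQP11) in FPKM tables of 3 species, the common marmoset (a New World monkey), the rat and a wallaby (a marsupial). FPKM, the number of sequenced fragments divided by transcript length and by library size, is a measure per length, so levels of different genes can be set side by side.

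Members were taken by the gene name listed in each table, ignoring case, which gave 18 of the 54059 entries in the 3 tables: 10 in the rat, 7 in the wallaby and 1, AQP4, in the marmoset. The marmoset table lists 8 further aquaporins under locus numbers that equal RefSeq gene numbers of AQP2, AQP3, AQP5, AQP6, AQP7, AQP8, AQP9 and AQP11. These were added, so that 26 entries are described, 9 of them marmoset. Marmoset AQP1 and wallaby AQP1, AQP5 and AQP6 were not analysed here.

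The study sequenced polyadenylated RNA of tissues, with Y-linked genes of mammals as its subject. Of its 31 samples, 14 were marmoset, 12 rat and 2 wallaby. Marmoset and rat brain (frontal cortex and cerebellum), heart, kidney and liver came from 1 female and 1 male each, with the ovary of that female and the testis of the male. The wallaby gave liver and testis of 1 male. No strain, age or treatment is labelled. The brain columns carry the name of no single region, so each stands for the brain of 1 animal. The marmoset testis column is the authors' value for 3 samples of 2 individuals.

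Sequencing depth is unknown, because the tables hold no counts. In the 20 marmoset and rat columns between 10749 and 12932 genes reached 1 FPKM. Summed FPKM differed more between columns, from 210712 in female brain to 1686921 in male liver of the marmoset. In the rat it ran from 457975 in ovary to 3551202 in male heart. The columns were not scaled to an equal sum before the main comparison. All kidney markers tested (4 marker lists) were higher in kidney in both species, and hepatocyte, heart muscle and astrocyte markers led in liver, heart and brain, with at most 1 exception in each list. Spermatid markers were near 0 in the marmoset testis column, as given with the testis values. An exact 0 can be a failed estimate, since ALB, the albumin gene, is listed at 0 in all 4 marmoset and rat liver columns. In bulk tissue, fewer cells of a type and less RNA per cell cannot be told apart. Each tissue was compared with the mean of the other 3 somatic tissues by limma on log2(FPKM + 1). To pass, a gene needed a p under 0.05 after Benjamini-Hochberg adjustment over all genes tested, and a log2 change of 1 or more in either direction. Changes on this scale understate those of genes near 1 FPKM.

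Of the members, 8 of 9 in the marmoset and 9 of 10 in the rat reached 1 FPKM in at least 2 somatic columns and were tested. Marmoset AQP8 and rat Aqp5 did not. Some members reached 1 FPKM in 1 tissue only and so entered the test through the tissue in which they were high: 3 marmoset members (AQP2, AQP4 and AQP5) and, of the rat members, Aqp2, Aqp3, Aqp6 and Aqp8. Counts of members that passed are therefore descriptions. So are the limma changes and p-values given below for these members of 1 tissue.

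**Figure D1:**
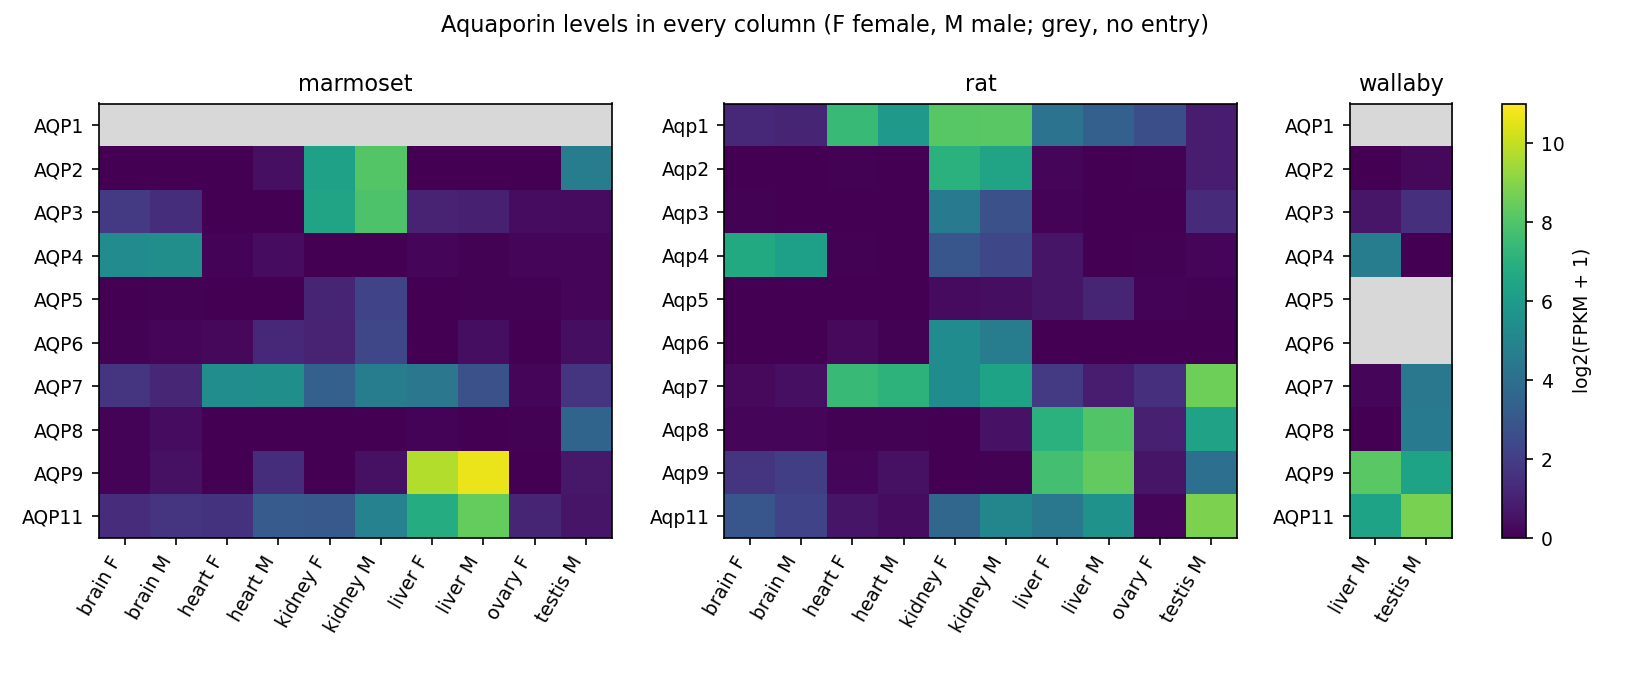
Level of each aquaporin, as log2(FPKM + 1), in every column of the marmoset, rat and wallaby tables, with 1 cell per gene and column, F for female and M for male, and grey for a gene with no entry. AQP2 is bright in kidney, AQP4 in brain and AQP9 in liver of both marmoset and rat, and Aqp7, Aqp8 and Aqp11 are bright in rat testis.

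By count, more aquaporins passed as higher in kidney than in any other somatic tissue, in both species. Liver was next, with 2 higher in the marmoset and 3 in the rat. This ranking is a description: marmoset AQP2 and AQP5 and rat Aqp2, Aqp3 and Aqp6 entered the test through kidney alone. In the marmoset 3 of 8 members tested were higher and 2 lower in kidney than in the other somatic tissues, against 10.1% and 7.87% of all genes tested. In the rat 6 of 9 were higher and 2 lower, against 11.0% and 10.6%.

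AQP2, the vasopressin-regulated water channel of collecting duct principal cells, stood at 77.4 FPKM in female and 267 FPKM in male marmoset kidney. It was listed at 0 in brain and liver of both animals, and at 0 and 0.369 FPKM in heart, so kidney did not overlap any other tissue. The limma change was 7.10 ± 0.45 log2 units (SE, adjusted p = 2.73e-04). In rat kidney Aqp2 stood at 131 FPKM in the female and 86.0 FPKM in the male, and at no more than 0.112 FPKM in any other somatic column, a change of 6.70 ± 0.20 (adjusted p = 3.11e-06).

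AQP3, the aquaglyceroporin of the opposite, basolateral face of the same cells, stood at 86.0 and 242 FPKM in female and male marmoset kidney. In brain it was 2.68 and 1.69 FPKM, in liver 1.06 and 0.937 FPKM, and in heart listed at 0. The kidney change was 6.30 ± 0.40 log2 units (limma, adjusted p = 2.73e-04). Rat Aqp3 was at a lower level and more uneven, with 22.0 FPKM in female and 5.56 FPKM in male kidney, and stayed at or below 0.0702 FPKM in brain, heart and liver (3.59 ± 0.41, adjusted p = 6.80e-04). The matching lower calls of rat Aqp3 in brain, heart and liver were close to the threshold (adjusted p of 0.0416, 0.0439 and 0.0470) and missed it without any 1 brain, heart or liver column.

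For AQP2 and AQP3 the difference between the animals in kidney ran in opposite directions in the 2 species. Kidney AQP7 and AQP11 were higher in the male of both species. Marmoset AQP2 and AQP3 were 3.45 and 2.81 times as high in the male kidney as in the female, beside a median male to female ratio of 1.29 over genes with at least 5 FPKM in both kidneys. The summed level of the 4 collecting duct principal cell markers in the marmoset table also differed, at 304 FPKM in the female and 1216 FPKM in the male. In the rat the ratios were 0.656 for Aqp2 and 0.253 for Aqp3, beside a median of 1.31, while the 6 principal cell markers summed to 312 FPKM in the female and 798 FPKM in the male. With 1 animal per sex these ratios have no test, and the part of cell makeup in them was not tested.

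AQP6, an anion-permeable channel in vesicles of acid-secreting intercalated cells, stood at 39.7 and 23.2 FPKM in female and male rat kidney and no higher than 0.211 FPKM in any other rat somatic column. The rat change was 4.91 ± 0.21 log2 units (limma, adjusted p = 1.14e-05). Marmoset AQP6 was low, with 1.17 and 4.11 FPKM in kidney and 0.193 and 1.39 FPKM in heart, so the columns of these tissues overlapped. Its kidney change of 1.38 ± 0.39 missed the threshold (adjusted p = 0.0519) and passed it with the animal as a block (adjusted p = 0.00573). Markers of intercalated cells were present in both species, at a summed 85.3 and 186 FPKM over 6 genes in female and male marmoset kidney and 214 and 269 FPKM in rat kidney.

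AQP5, the channel of secretory glands, was among the lowest members. In marmoset kidney it stood at 1.20 and 3.70 FPKM, and at no more than 0.0535 FPKM in the other somatic columns (1.66 ± 0.27 log2 units, limma, adjusted p = 0.00649). Against brain alone, the next tissue in order, the marmoset AQP5 difference was 1.64 ± 0.33 (limma, adjusted p = 0.0103), and it missed the threshold without the female brain column (adjusted p = 0.0855) and without the male one (adjusted p = 0.0761). Rat Aqp5 did not follow this order: its highest levels were 0.549 and 1.19 FPKM in liver, beside 0.266 and 0.329 FPKM in kidney, and it was not tested.

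Aqp1, the constitutive water channel of proximal tubule, endothelium and red cells, was described in the rat. It stood at 286 and 294 FPKM in female and male kidney, 174 and 61.4 FPKM in heart, 17.2 and 9.42 FPKM in liver, and 1.43 and 1.22 FPKM in brain. No tissue overlapped the next in this order. Heart exceeded liver (2.92 ± 0.51 log2 units, limma, adjusted p = 0.00356) and liver exceeded brain (2.57 ± 0.51, adjusted p = 0.00452), but kidney over heart missed the threshold (1.48 ± 0.51, adjusted p = 0.0671) and passed it with the animal as a block (adjusted p = 0.0256).

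Against the mean of the other tissues, rat Aqp1 was higher in kidney by 4.28 ± 0.42 (limma, adjusted p = 3.33e-04) and in heart by 2.31 ± 0.42 (adjusted p = 0.00386). Without the brain columns the heart value was 0.72 (adjusted p = 0.299). Proximal tubule markers summed to 1371 and 5850 FPKM in female and male rat kidney over 5 genes, whereas Aqp1 was level between these animals. In rat heart the 6 endothelial markers summed to 178 and 175 FPKM and the 5 red cell entries, mostly from 2 beta globin entries, to 2745 and 3291 FPKM, against 49.2 and 55.9 FPKM and 565 and 337 FPKM in kidney. All 6 endothelial markers passed as higher in rat heart, against 15.8% of all rat genes tested. The part of these cells in the Aqp1 level was not tested.

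**Figure D2:**
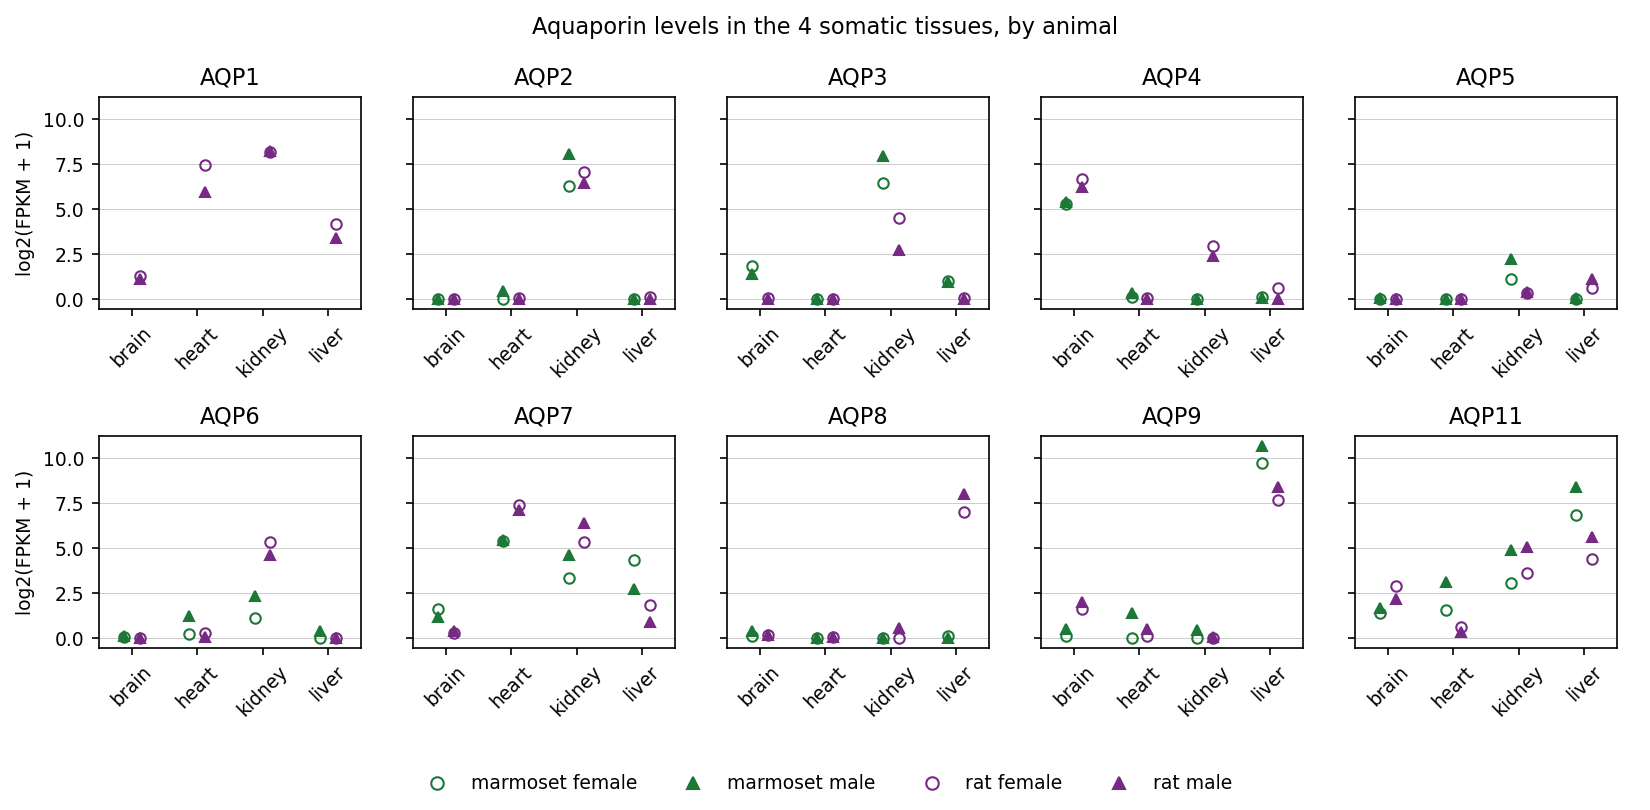
Level of each aquaporin as log2(FPKM + 1) in brain, heart, kidney and liver, with 1 point per animal (open circle female, filled triangle male, green marmoset, purple rat). The points of AQP2 in kidney, AQP4 in brain and AQP9 in liver lie far above all other tissues, whereas those of AQP7 and AQP11 are spread over several tissues.

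In brain 1 of 8 marmoset members was higher (AQP4) and 4 lower, against 15.7% and 21.4% of all genes tested, and in the rat 1 of 9 was higher (Aqp4) and 6 lower, against 17.3% and 25.7%. AQP2 was as low in marmoset heart and liver as in brain, and passed as lower in each of the 3. Without either the female or the male marmoset brain column the lower calls of AQP2 (adjusted p of 0.0690 and 0.0630), AQP7 (0.0527 and 0.0690) and AQP11 (0.111 and 0.0830) missed the threshold in limma. Marmoset AQP3, with a brain change of -1.07, passed as lower with the animal as a block (adjusted p = 0.0414) and not without it (adjusted p = 0.0719).

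AQP4, the water channel of astrocyte endfeet, stood at 38.9 and 42.1 FPKM in female and male marmoset brain and at no more than 0.295 FPKM in heart, kidney and liver. The brain change was 5.25 ± 0.16 log2 units (limma, adjusted p = 1.10e-05). Marmoset AQP4 entered the test through brain alone, so this value is a description. Its SE is pooled with heart, kidney and liver, all near 0, and does not measure the spread in brain. Rat Aqp4 stood at 103 and 73.1 FPKM in brain (5.45 ± 0.27, adjusted p = 6.02e-06).

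The kidney separated the species in AQP4. Rat kidney held 6.81 and 4.23 FPKM, above rat liver at 0.524 and 0.0107 FPKM (2.36 ± 0.32 log2 units, limma, adjusted p = 0.00167). Marmoset kidney held 0.0129 and 0.00978 FPKM, the lowest of its 4 tissues. The tables were normalized separately and the difference between species was not tested. In rat kidney the astrocyte marker Gfap stood at 0.0868 and 0.0173 FPKM and Gjb6 was listed at 0. The 6 astrocyte markers summed to 26.6 and 20.7 FPKM there, mostly from Aldh1l1, against 311 and 253 FPKM in rat brain. In rat heart the same sum was 291 and 255 FPKM, nearly all of it Gja1 at 290 and 254 FPKM. The sum is therefore no measure of astrocytes across tissues.

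The list of astrocyte endfoot and dystrophin complex genes holds the anchor of AQP4 in the membrane. In brain 7 of 16 marmoset entries tested were higher and 5 lower, against 15.7% and 21.4% of all genes, and in the rat 6 of 15 were higher and 5 lower, against 17.3% and 25.7%. In heart 8 entries were higher in each species, with 4 lower in the marmoset and 5 in the rat, against 10.2% and 13.8% of all marmoset genes and 15.8% and 16.5% of all rat genes. The median change of this list was 1.07 in marmoset heart and 1.08 in rat heart, beside -0.17 and -0.11 over all genes tested.

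The astrocyte glutamate transporter SLC1A3 was higher in brain by 5.86 ± 0.41 in the marmoset (limma, adjusted p = 1.05e-04) and by 5.84 ± 0.24 in the rat (adjusted p = 3.59e-06), and rat Gfap, the astrocyte filament gene, by 5.55 ± 0.28 (adjusted p = 7.21e-06). The genes leading in heart encode muscle parts of the complex or its partners: the sarcoglycan SGCA rose by 6.14 ± 0.51 in marmoset (adjusted p = 6.40e-04) and 5.31 ± 0.21 in rat heart (adjusted p = 5.69e-06). The dystrobrevin DTNA was higher in marmoset heart by 4.77 ± 0.28 (limma, adjusted p = 2.14e-04), and the gap junction gene Gja1 in rat heart by 4.55 ± 0.24 (adjusted p = 1.93e-05). AQP4 itself stood at no more than 0.295 FPKM in marmoset and 0.0502 FPKM in rat heart.

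Among the aquaporins, heart had 1 higher and 4 lower of 8 members in the marmoset, against 10.2% and 13.8% of all genes, and 2 higher and 7 lower of 9 in the rat, against 15.8% and 16.5%. The rat count includes the lower call of Aqp3 described above. Rat Aqp2, Aqp3, Aqp6 and Aqp8 entered the test through kidney or liver alone. They stood at no more than 0.211 FPKM in heart and 0.128 FPKM in brain, and passed as lower in both. Aqp2, Aqp3 and Aqp6 passed as lower in liver as well. These lower calls are therefore not particular to heart. Marmoset AQP11, with a heart change of -2.01, passed as lower with the animal as a block (limma, adjusted p = 0.00279) and not without it (adjusted p = 0.0710).

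AQP7, the aquaglyceroporin of fat, heart and proximal tubule, stood at 40.5 and 43.5 FPKM in female and male marmoset heart, 9.26 and 23.2 FPKM in kidney, 19.6 and 5.59 FPKM in liver and 2.14 and 1.29 FPKM in brain. Heart did not overlap the other tissues, while kidney and liver overlapped each other. The heart change was 2.44 ± 0.52 log2 units (limma, adjusted p = 0.0152). This call was lost without the female heart column (2.49, adjusted p = 0.0765), without the male heart column (2.39, adjusted p = 0.0764), without the male brain column (2.37, adjusted p = 0.0501) and without both brain columns (1.66, adjusted p = 0.110).

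Rat Aqp7 stood at 170 and 138 FPKM in heart, 39.6 and 82.6 FPKM in kidney, 2.61 and 0.866 FPKM in liver and 0.214 and 0.353 FPKM in brain, with no overlap between neighbours. Heart was higher by 4.74 ± 0.36 (limma, adjusted p = 9.74e-05) and kidney by 2.86 ± 0.36 (adjusted p = 0.00106) than the other tissues. Heart against kidney passed narrowly (1.41 ± 0.44, adjusted p = 0.0497). It missed the threshold without the female or male heart, the female or male brain, the female kidney or both brain columns, with pseudocount 0.1 and with no filter, the adjusted p reaching 0.223. Adiponectin, a defining fat cell gene, was at 0 and 0.0149 FPKM in rat heart and at 1.16 and 2.38 FPKM in marmoset heart.

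Rat kidney, by contrast, held adiponectin at 22.6 and 3.09 FPKM, in the reverse order of Aqp7 between the animals. The 5 adipocyte markers summed to between 36.2 and 67.6 FPKM in rat heart, nearly all of it Plin4, which heart muscle also expresses, and to 30.6 and 13.1 FPKM in rat kidney. The proximal tubule markers given above were higher in the male rat kidney, as Aqp7 was. Their part in the Aqp7 level was not tested.

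Liver held 2 higher and 3 lower of 8 marmoset members, against 14.7% and 14.3% of all genes tested, and 3 higher and 6 lower of 9 rat members, against 18.0% and 18.6%. AQP9, the channel by which hepatocytes take up glycerol, had the highest level of any aquaporin: 844 and 1638 FPKM in female and male marmoset liver, with no more than 1.69 FPKM elsewhere among the somatic columns. The change was 9.78 ± 0.46 log2 units (limma, adjusted p = 5.55e-05). The 1.69 FPKM were in the male heart, whose 4 hepatocyte markers summed to 170 FPKM against 3.31 FPKM in the female heart. These markers were also higher in the male brain (60.6 against 8.03 FPKM) and the male kidney (79.2 against 4.19 FPKM). AQP9 was higher in the male in these tissues too. The part of hepatocyte transcripts in the AQP9 values outside liver was not tested. Rat Aqp9 stood at 206 and 330 FPKM in liver (7.30 ± 0.25, adjusted p = 1.51e-06).

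Rat brain was the next tissue for Aqp9, with 2.14 and 3.06 FPKM, above heart at 0.107 and 0.412 FPKM (1.51 ± 0.30 log2 units, limma, adjusted p = 0.00589). Without the male brain column this step missed the threshold (1.33, adjusted p = 0.0539). Marmoset brain held 0.0794 and 0.410 FPKM, which overlapped heart. Kidney had the lowest mean of the somatic tissues for AQP9 in both species, but the step down to it did not pass. The limma adjusted p was 0.947 from marmoset brain, which overlapped kidney, and 0.548 from rat heart.

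AQP8 differed in place between the species. Rat liver held 127 FPKM in the female and 255 FPKM in the male (7.33 ± 0.29 log2 units, limma, adjusted p = 3.26e-06), and no other rat somatic column exceeded 0.465 FPKM. Marmoset liver held 0.0907 and 0 FPKM, and no marmoset somatic column exceeded 0.306 FPKM, so the gene was not tested there. Hepatocyte markers were high in both, summing to 17279 and 13466 FPKM over 4 genes in marmoset liver and 31173 and 49077 FPKM over 6 genes in rat liver.

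AQP11 was broader. In the marmoset it stood at 112 and 333 FPKM in liver, 7.48 and 28.7 FPKM in kidney, 2.01 and 7.87 FPKM in heart and 1.67 and 2.20 FPKM in brain. Liver was higher than the other tissues by 4.97 ± 0.69 (limma, adjusted p = 0.00244) and than kidney by 3.61 ± 0.84 (adjusted p = 0.0325). The step from liver to kidney missed the threshold without the female brain, the male brain, both, the female kidney or the male liver column, the adjusted p reaching 0.170, and kidney over heart missed it (1.62 ± 0.84, adjusted p = 0.248) and passed with the animal as a block (adjusted p = 0.0186).

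Rat Aqp11 stood at 20.1 and 48.9 FPKM in liver and 11.4 and 32.1 FPKM in kidney, which overlapped, then 6.62 and 3.61 FPKM in brain and 0.535 and 0.283 FPKM in heart. Liver was higher by 2.55 ± 0.47 (limma, adjusted p = 0.00380). The kidney change of 1.65 ± 0.47 (adjusted p = 0.0362) missed the threshold without any 1 of the brain, heart, male kidney or female liver columns, without both brain columns and with no filter. Without the male kidney it was 0.94 (adjusted p = 0.254). The step from brain to heart (2.08 ± 0.58, adjusted p = 0.0237) missed the threshold without any 1 brain or heart column, the adjusted p reaching 0.172.

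Ordering the 4 somatic tissues by level, 7 of 24 steps between neighbouring tissues passed in the marmoset and 14 of 27 in the rat. The order was set by the same levels that were then tested, so these counts are descriptions. In the marmoset the passing steps were kidney over heart for AQP2, kidney over brain for AQP3 and AQP5, brain over heart for AQP4, liver over brain for AQP7, liver over heart for AQP9 and liver over kidney for AQP11. Over all marmoset genes these directions passed for 11.6%, 17.1%, 14.4%, 22.1%, 13.9% and 6.88%, in that order of tissue pairs. These shares, and those given for the rat below, are of all genes in a fixed direction, not ordered by each gene's own level. They are therefore no matching background for the counts of steps. For 6 of the 8 marmoset members the highest tissue passed over the next, and no lower step passed. With the animal as a block, 8 of the 24 steps passed, the added one being AQP11 from kidney to heart.

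In the rat the first step passed for 7 of 9 members, and with the animal as a block for 8, the added one being Aqp1 from kidney to heart, which made 15 of 27 steps. Brain stood over kidney for Aqp4, against 16.5% of all rat genes, and heart over kidney for Aqp7, against 13.8%. Kidney stood over liver for Aqp2 and Aqp3, against 11.5%, and over heart for Aqp6, against 13.5%. Liver stood over kidney for Aqp8, against 11.4%, and over brain for Aqp9, against 26.4%. Further down the order, kidney passed over liver for Aqp4 and Aqp7, heart over liver for Aqp1, against 17.4%, liver over brain for Aqp1, brain over heart for Aqp9 and Aqp11, against 17.6%, and kidney over brain for Aqp11, against 19.3%. The step for Aqp11 from kidney to brain (1.78, limma, adjusted p = 0.0457) missed the threshold without any 1 brain, heart or male kidney column, the adjusted p reaching 0.259. The marmoset AQP7 step from liver to brain (2.12, adjusted p = 0.0373) missed it without any 1 brain or heart column or the female liver, the adjusted p reaching 0.181.

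**Figure D3:**
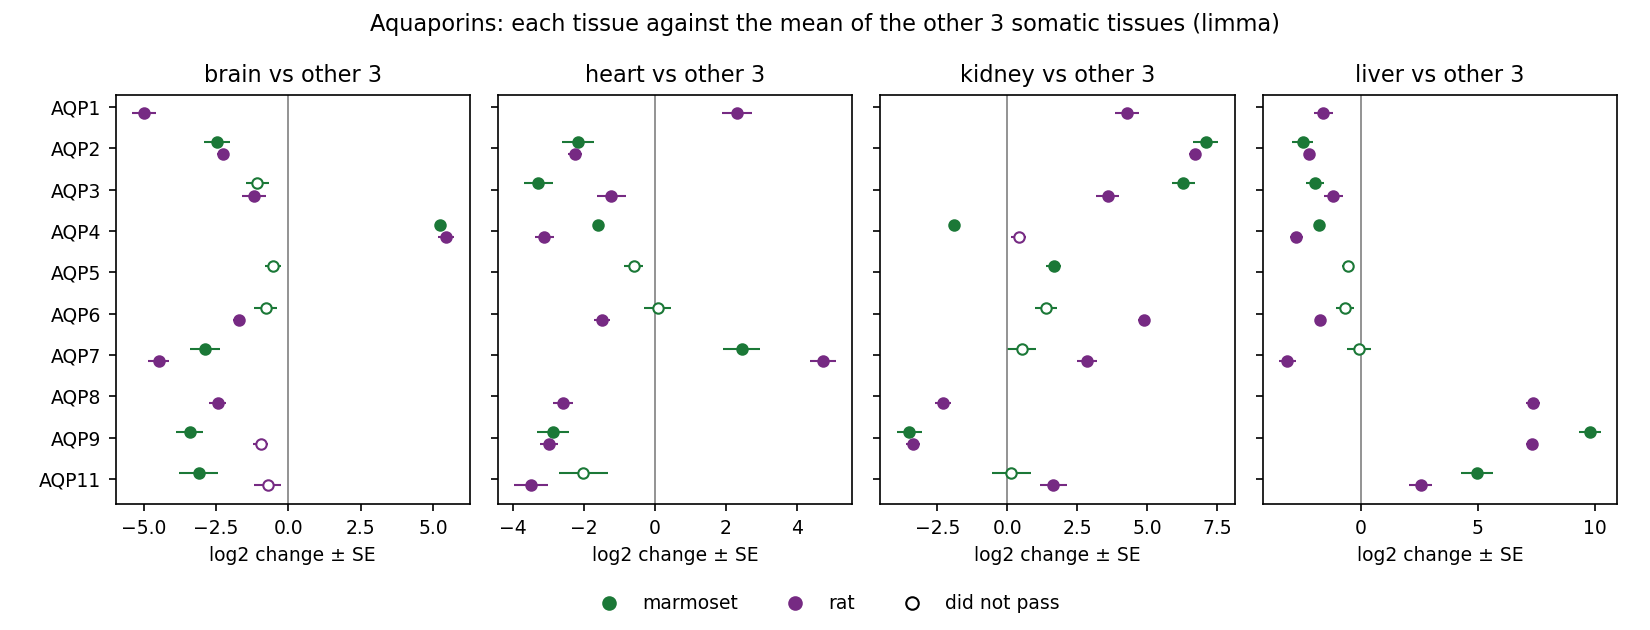
log2 change of each tested aquaporin in brain, heart, kidney or liver against the mean of the other 3 somatic tissues, with its limma standard error (green marmoset, purple rat, open symbols did not pass). Kidney shows AQP2 at 7.10 and 6.70 and brain shows AQP4 at 5.25 and 5.45 in marmoset and rat, and the horizontal scales differ between panels.

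Genes of glycerol handling were counted in the same way. Of 12 marmoset entries tested, 5 were higher and 4 lower in liver, against 14.7% and 14.3% of all genes, and 4 were higher and 3 lower in heart, against 10.2% and 13.8%. In marmoset kidney 2 were higher and 2 lower, against 10.1% and 7.87%, and in brain 1 was higher and 6 lower, against 15.7% and 21.4%. Of 13 rat entries 5 were higher in each of heart, kidney and liver, against 15.8%, 11.0% and 18.0%, with 2, 1 and 2 lower, against 16.5%, 10.6% and 18.6%. In rat brain 0 were higher and 9 lower, against 17.3% and 25.7%. DGAT2, which completes triglyceride synthesis, was higher in marmoset liver by 6.07 ± 0.51 (limma, adjusted p = 4.67e-04) and in rat liver by 5.12 ± 0.35 (adjusted p = 4.65e-05). LPL, the lipase that frees fatty acids from circulating triglyceride, was higher in heart by 5.51 ± 0.37 (adjusted p = 3.17e-04) and 6.31 ± 0.31 (adjusted p = 1.48e-05).

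GPAM, the first enzyme of glycerolipid synthesis, was higher in liver by 3.63 ± 0.42 in the marmoset (limma, adjusted p = 0.00126) and by 3.00 ± 0.32 in the rat (adjusted p = 3.17e-04). Glycerol kinase, Gk, which traps glycerol in the cell, fell by 3.13 ± 0.32 in rat brain (adjusted p = 2.04e-04), and glycerol phosphate dehydrogenase, GPD1, fell by 4.11 ± 0.43 in marmoset brain (adjusted p = 5.90e-04). Rat Gk stood at 95.6 and 54.2 FPKM in kidney and 90.7 and 156 FPKM in liver, and at 14.3 and 11.5 FPKM in heart, the rat tissue with the highest somatic Aqp7.

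Of the genes of vasopressin signalling and urine concentration, 1 of 16 marmoset entries was higher in kidney and 2 lower, against 10.1% and 7.87% of all genes. In rat kidney 3 of 17 were higher and 2 lower, against 11.0% and 10.6%. In brain 5 were higher and 2 lower in each species, against 15.7% and 21.4% in the marmoset and 17.3% and 25.7% in the rat. In marmoset liver 2 were higher and 5 lower and in rat liver 0 higher and 3 lower, against 14.7%, 14.3%, 18.0% and 18.6% in that order. The vasopressin V2 receptor gene Avpr2 had the largest change among the rat entries, with 14.9 and 33.2 FPKM in female and male rat kidney and listed at 0 in all other rat somatic columns (4.54 ± 0.27 log2 units, limma, adjusted p = 4.11e-05). It entered the test through the kidney columns alone, so this value is a description.

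Other members of that list with large changes were genes of vesicle fusion and signalling that neurons also use. VAMP2 was higher in brain by 2.99 ± 0.38 in the marmoset (limma, adjusted p = 0.00135) and 3.45 ± 0.80 in the rat (adjusted p = 0.00894, but 0.0697 without the female and 0.0597 without the male brain column), and the calcineurin subunit PPP3CA by 3.98 ± 0.29 (adjusted p = 1.21e-04) and 3.27 ± 0.35 (adjusted p = 2.35e-04). PRKAR2B, a protein kinase A subunit, was higher in marmoset brain by 2.58 ± 0.29 (adjusted p = 7.96e-04), and the vesicle motor MYO5B in marmoset liver by 2.66 ± 0.27 (adjusted p = 8.35e-04). The urea transporter Slc14a1 was higher in rat brain by 3.13 ± 0.30 (adjusted p = 1.36e-04), at 14.1 and 7.93 FPKM, beside 1.15 and 0.118 FPKM in rat kidney.

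The short list of ammonia, urea and peroxide genes had 4 marmoset and 6 rat entries tested. In kidney 3 marmoset entries were higher and 0 lower, against 10.1% and 7.87% of all genes, and 2 rat entries higher and 0 lower, against 11.0% and 10.6%. In liver 2 marmoset entries were higher and 2 lower, against 14.7% and 14.3%, and 3 rat entries higher and 1 lower, against 18.0% and 18.6%. In brain 0 marmoset entries were higher and 4 lower, against 15.7% and 21.4%, and 1 rat entry higher and 5 lower, against 17.3% and 25.7%. In heart 0 were higher in either species, with 2 marmoset and 3 rat entries lower, against 13.8% and 16.5%. The ammonia transporter RHCG was higher by 5.31 ± 0.36 in marmoset (limma, adjusted p = 3.22e-04) and 6.57 ± 0.28 in rat kidney (adjusted p = 1.05e-05), and RHBG by 3.73 ± 0.45 (adjusted p = 0.00209) and 4.29 ± 0.29 (adjusted p = 7.46e-05). RHCG entered the test through the kidney columns alone in both species, so its values are descriptions. The hydrogen peroxide source NOX4 was higher in marmoset kidney by 5.56 ± 0.20 (adjusted p = 5.84e-05). The peroxide scavengers were lower in brain than in the other tissues. The limma change was -4.74 ± 0.46 for rat Cat (adjusted p = 1.45e-04) and -3.59 ± 0.40 for rat Prdx1 (adjusted p = 2.77e-04). For marmoset PRDX1 it was -2.53 ± 0.66 (adjusted p = 0.0227). It was -2.25 without the female and -2.82 without the male brain column, and missed the threshold in both. In brain PRDX1 still stood at 31.2 and 46.8 FPKM in the marmoset and 56.0 and 37.0 FPKM in the rat.

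Testis and ovary had 1 column each, so they were set beside the somatic columns with no test. The distance asked for was 2 log2 units from all 8 somatic columns of the species, in either direction. In rat testis 1 of 10 members, Aqp11, lay above, against 10.1% of all genes, and in marmoset testis 1 of 9, AQP8, against 3.10%. No member lay above in either ovary, against 0.493% of marmoset and 0.488% of rat genes. None lay below in any of these columns, against 0.381% of all genes in marmoset testis, 0.0661% in marmoset ovary, 0.727% in rat testis and 0.0195% in rat ovary.

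In rat testis Aqp11 stood at 451 FPKM, 3.18 log2 units above its highest somatic column. Aqp7 stood at 380 FPKM, 1.16 units above the female heart, and was thus the highest Aqp7 level in the rat table without reaching the distance of 2. Aqp8 stood at 79.0 FPKM, below both rat liver columns, and Aqp9 at 15.3 FPKM. Aqp1, at 0.819 FPKM, was lower than in any rat somatic tissue, and Aqp6 was listed at 0.

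Marmoset testis differed. AQP8 stood at 10.5 FPKM, 3.14 log2 units above its highest somatic column. AQP2 stood at 24.4 FPKM, below both kidneys and above all other marmoset columns, whereas rat testis held 0.783 and wallaby testis 0.168 FPKM. AQP7 stood at 2.26 FPKM and AQP11 at 0.559 FPKM, the latter lower than in any marmoset somatic column.

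In the wallaby, with liver and testis only, a gene was counted at a difference of at least 2 log2 units with at least 5 FPKM in the higher tissue. In testis 3 of 7 members were higher, against 10.2% of all genes, and in liver 1, against 23.2%. AQP11 stood at 439 FPKM in testis and 82.7 FPKM in liver, AQP8 at 21.8 FPKM and listed at 0, and AQP7 at 20.0 and 0.155 FPKM. AQP9 stood at 290 FPKM in liver and 82.5 FPKM in testis, a difference of -1.80 that did not reach 2. Over genes with at least 5 FPKM in either tissue, the median difference of testis from liver was -1.22.

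Wallaby AQP4 was the member higher in liver, at 23.6 FPKM, and was listed at 0 in testis. Marmoset and rat liver held at most 0.524 FPKM of it. The astrocyte genes GFAP and SLC1A3 were listed at 0 in that liver and SLC1A2 was at 0.0939 FPKM. The 5 astrocyte markers in the table summed to 297 FPKM there, mostly from ALDH1L1 at 274 FPKM, while the hepatocyte markers summed to 33178 FPKM. The proximal tubule markers summed to 243 FPKM over 5 genes there, nearly all of it from MIOX, and their part in the AQP4 level was not tested. Wallaby AQP3 stood at 0.568 FPKM in liver and 1.85 FPKM in testis.

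The spermatid markers summed to 13578 FPKM over 6 genes in rat testis and 83516 FPKM over 6 genes in wallaby testis, but to 0.895 FPKM over 5 genes in the marmoset testis column, which is within the range of 0.236 to 5.36 FPKM of the marmoset somatic columns. TNP1, a protein that packs spermatid DNA, stood at 0.169 FPKM there. Markers of Sertoli cells, the supporting cells of the tubule, summed to 272 FPKM over 5 genes in marmoset testis, above the other marmoset columns at 0.979 to 89.1 FPKM. In rat testis they summed to 60.2 FPKM, below the female rat brain at 118 FPKM. The 4 epididymis markers summed to 344 FPKM in the marmoset testis column, nearly all of it from DEFB129 at 342 FPKM. Adiponectin stood at 35.6 FPKM there. The part of cell makeup in the AQP2, AQP7, AQP8 and AQP11 values of that column was not tested.

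**Figure D4:**
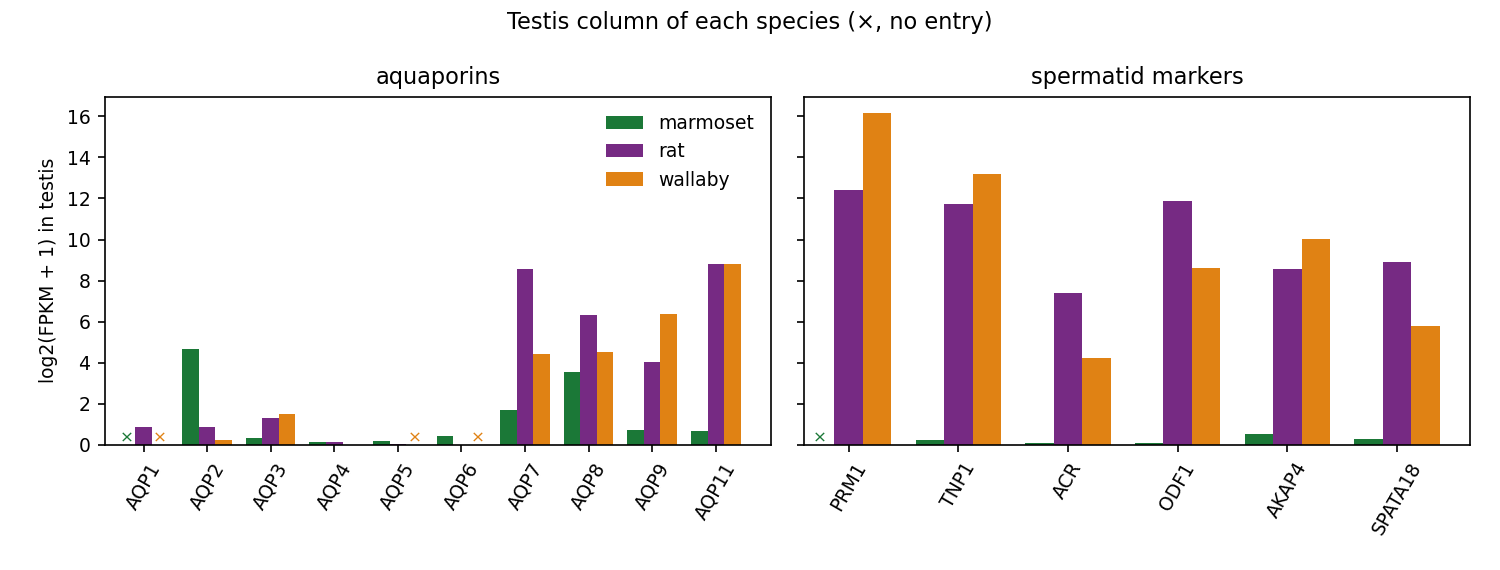
Level in the testis column of each species, as log2(FPKM + 1), for the aquaporins (left) and 6 spermatid markers (right), with 1 bar per gene and species and a cross for a gene with no entry. AQP11 reaches 451 FPKM in rat and 439 FPKM in wallaby but 0.559 FPKM in marmoset, where the 5 spermatid markers with an entry sum to 0.895 FPKM.

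In the ovaries the levels were low. Rat Aqp1 was the highest, at 5.34 FPKM, followed by Aqp7 at 1.80 FPKM and Aqp8 at 0.976 FPKM. Marmoset AQP11 stood at 1.20 FPKM, AQP3 at 0.281 FPKM and AQP7 at 0.144 FPKM, and no other marmoset member exceeded 0.157 FPKM.

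Likeness was measured as the root mean square difference of centred log2(FPKM + 1) profiles over all 10 columns, among 6586 marmoset and 12900 rat genes, and is a description. The profile nearest to rat Aqp2 was that of Tmem174 (0.14), then Slc22a12, a urate transporter (0.25), and the potassium channel gene Kcnj1 (0.27). Rat Aqp6 was nearest to Cldn16 (0.11), Gp2 (0.12) and Tmem207 (0.15), and marmoset AQP4 to PRRT2 (0.14), SLC12A5 (0.16) and OMG (0.17). Marmoset AQP8 was nearest to TEX11 (0.11), and marmoset AQP9 to the complement gene C8B (0.24). These genes are read in the same libraries.

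For the other members the nearest gene lay between 0.34 and 1.08. Rat Aqp4 was nearest to Dnm1 (0.47), rat Aqp3 to Slc5a1 (0.34), rat Aqp9 to Cyp4f4 (0.58) and rat Aqp8 to Tmem86b (0.86). Marmoset AQP11 was nearest to HSD17B14 (0.35), AQP3 to MIOX (0.58), AQP7 to an entry with only a protein name (0.68) and then ACADM (0.72), and AQP2 to CUBN (0.97). The farthest were rat Aqp1 from Cd74 (1.04), rat Aqp7 from St6galnac2 (1.06) and rat Aqp11 from Asrgl1 (1.08).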

How the data were processed

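The deposited values are FPKM by the authors, who used TopHat 1.4.0 and Cufflinks 2.0.0, per the submitters' processing notes. Per the file names they were normalized across tissues. For the method, genome builds, annotations, filters and the handling of reads shared by similar genes, nothing is stated (not given in the sources used here). Low values showed no steps of whole reads, with at most 0.529% of low genes in the fullest bin of a ratio between columns, so depth is unknown. Of the wallaby columns, 8 that match no sample, all at 0, were not used, nor were the 3 elephant samples.

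Each species was fitted alone with limma 3.58.1 (R 4.3.3, mean-variance trend) on log2(FPKM + 1), 8 somatic columns, keeping genes that reached 1 FPKM in 2 or more of them (15100 marmoset, 14560 rat). The fit was also run on simulated data with independent columns, unlike the paired columns here. That run says nothing of the effect of pairing on the p-values. P-values rest on 1 spread per gene, pooled over the 4 tissues with 2 animals each and moderated over genes. They do not measure the spread within the tissue called, which can be larger. Marmoset AQP2 differed by 1.77 log2 units between the 2 kidneys, beside an SE of 0.45 for its kidney change. Sex and animal cannot be told apart. The columns are paired, because the labels give the tissues of each sex to 1 individual, and male minus female differences correlated between tissues over genes (r 0.541 to 0.716 in the marmoset, 0.143 to 0.506 in the rat). Alternatives were pseudocount 0.1, no filter, quantile normalization, the animal as a block, no brain columns and each column left out. Leaving out a column with the filter at 1 column was added after seeing the data. Members, lists and markers were chosen with earlier results of these data known. All members were named, up to 4 list genes with the largest passing changes per list and species, and the 3 genes of most like profile with at least 5 FPKM, of which the nearest are printed. The result of 1 list gene that the rule names is not reported here. Marmoset names came from RefSeq and Ensembl name tables. No sequence was printed.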

Additional observations from a re-analysis of the deposited data

How the results depend on the processing

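None of the aquaporin changes that passed reversed under any alternative. Of 19 higher calls, 3 were lost in at least 1 alternative (marmoset AQP7 in heart, rat Aqp1 in heart and rat Aqp11 in kidney), and of 34 lower calls, 11. Leaving out 1 column at a time, the number of aquaporin calls ranged from 1 to 6 in marmoset brain, 3 to 5 in heart, 3 to 6 in kidney and 3 to 5 in liver, and in the rat from 4 to 7 in brain, 6 to 9 in heart, 4 to 8 in kidney and 6 to 9 in liver. Part of this has a plain cause in the fit: a gene of 1 tissue fails the filter of 2 columns once a column of that tissue is left out. With the filter at 1 column, an alternative chosen after seeing the data, AQP2 and AQP5 in marmoset kidney and Aqp2, Aqp3 and Aqp6 in rat kidney passed without either kidney column. They then enter the test through the remaining kidney column alone, whose spread is taken from the other tissues, so this says little of their stability. With the animal as a replicate block, 3 marmoset calls were gained (AQP3 in brain, AQP6 in kidney, AQP11 in heart) as were 2 steps between neighbouring tissues (marmoset AQP11 and rat Aqp1, kidney over heart), and no other aquaporin call against the other tissues or between neighbours changed. Quantile normalization moved the median of all genes in marmoset brain from -0.34 to -0.13, in kidney from 0.00 to -0.13 and in liver from 0.06 to -0.13. It changed no direction of an aquaporin that had passed, and the rat Aqp3 lower calls missed the threshold, as they did with no filter. In marmoset ovary, where 0 members lay 2 log2 units from all somatic columns, there was 1 (AQP7, lower) with pseudocount 0.1 and 1 without the brain columns. In rat testis there were 2 without the brain columns (Aqp1, lower, besides Aqp11) against 1. The cause was not tested.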

Other observations

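The rat table lists Aqp2, Aqp5 and Aqp6 on chromosome X, whereas the marmoset table lists AQP2, AQP5 and AQP6 together on chromosome 9 as autosomal genes. Genome builds and annotations are not stated and the listed positions were not checked. No difference between the species and no sex linkage is read from them. The rat female to male order of these genes in kidney was not the same: Aqp2 and Aqp6 were higher in the female, at 131 and 39.7 FPKM, and Aqp5 in the male, at 0.329 FPKM. Aqp5 was near 0 in both animals, with 0.266 FPKM in the female. With 1 animal per sex this order has no test.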
